A study of Sus scrofa with 9 samples.

Results

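The comparison was of atherosclerotic with normal abdominal aorta at 24 weeks, over every gene that could be tested. It used 6 of the 9 libraries of the series, 3 of them titled NC and 3 titled H24 (called atherosclerosis here). The tissue was distal abdominal aorta from male minipigs of the Tibetan breed, which were bought at 3 to 4 months of age and adapted for 4 weeks. The NC pigs then ate a regular diet and the atherosclerosis pigs a high-fat/cholesterol (HFC) diet with shortening, cholesterol and egg yolk powder, each for 24 weeks, and no drug or genetic change was used in either group. The study sequenced 3 of the 5 pigs of each group, so replicates are separate animals. Of 21357 genes in the deposited table, 14828 had a mean FPKM (fragments scaled to transcript length and library size) of at least 0.1 over the 6 libraries and were tested, and 6529 were not. The lesion area of each sampled piece is not given in the labels.

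The aortic media consists mainly of smooth muscle cells, which contract through actin and myosin and keep their tone through ion channels and receptors for hormones and nerve transmitters. In atherosclerosis, lipoprotein cholesterol collects in the intima, monocytes enter and become macrophages that take up lipid and digest it in lysosomes, and smooth muscle cells can lose their contractile proteins and lay down matrix. A cell loaded with cholesterol shuts down its own cholesterol synthesis through the SREBP2 transcription factor and opens efflux through the LXR nuclear receptors. Each library mixes all these cells, so that fewer cells of a type and less RNA per cell cannot be told apart.

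Total counts were between 44094263 and 75787978 per library, and 3 counts, taken as the smallest signal, corresponded to 0.0396 to 0.0680 CPM (counts scaled to the library total), which covers counting error only. Atherosclerosis replicate 3 stood apart. Correlation across genes, as a description of log2 levels, was 0.965 to 0.968 among NC libraries and 0.949 between atherosclerosis replicates 1 and 2. Between replicate 3 and these it was 0.912 and 0.881. Values without replicate 3 are therefore given beside many of those with it. The labelled tissue was checked on smooth muscle markers. MYH11, the smooth muscle myosin heavy chain, lay between 2356 and 3317 FPKM in the NC pigs. In atherosclerosis replicates 1 to 3 it was at 1348, 1949.8 and 218 FPKM.

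A gene was called up-regulated or down-regulated where it had a log2 fold change above 1 or below -1 and an unadjusted p of less than 0.05 in edgeR's quasi-likelihood test, the thresholds of the study. By this rule 1475 of the 14828 genes (9.95%) were called up in atherosclerosis and 225 (1.52%) were called down. In the up-regulated genes the median log2 fold change was 2.65, or 2.52 with the 74 genes at 0 in every NC library set at their bounds. In the down-regulated genes it was -1.66, or -1.57 with the 17 genes at 0 in every atherosclerosis library set at theirs. Over all tested genes the median was 0.01. With Benjamini-Hochberg adjustment over all tested genes, edgeR called 0 genes at an adjusted p under 0.05, while 2055 genes had an unadjusted p under 0.05 and DESeq2 called 879 higher and 75 lower past the adjusted threshold. DESeq2 gave no p-value to 105 of the up-regulated and 2 of the down-regulated genes under its rule for outlying counts, among them CYP7A1, ACP5 and GPNMB. FPKM values of the groups did not overlap, with atherosclerosis higher, in 1899 genes (12.8%) and, with atherosclerosis lower, in 1157 genes (7.8%). Among the called genes this held for 1250 of the 1475 up-regulated and 193 of the 225 down-regulated genes.

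**Figure D1:**
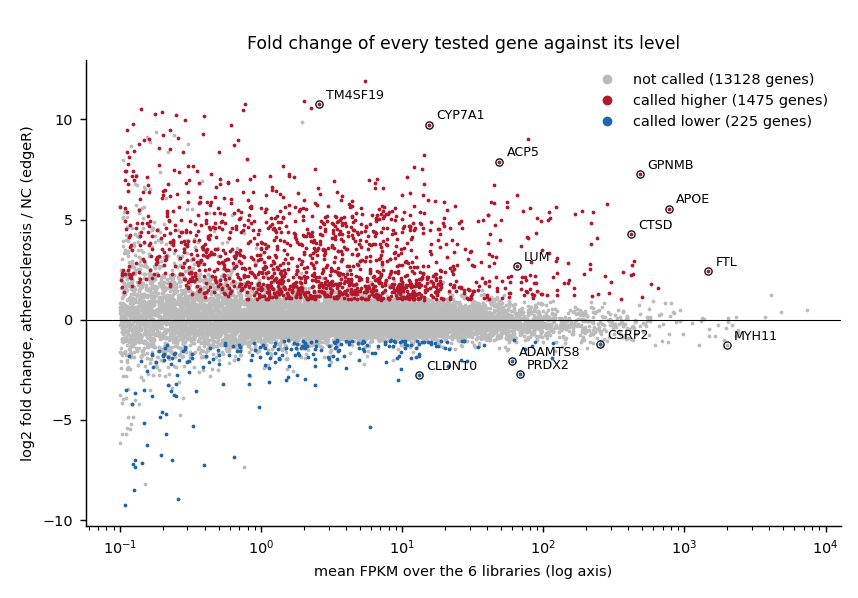
Each point is a tested gene, with its mean FPKM over the 6 libraries on a log x axis and its edgeR log2 fold change (atherosclerosis / NC) on the y axis. Red marks the 1475 genes called higher, blue the 225 called lower and grey the rest; the up-regulated genes reach farther from 0 and to higher levels. For genes at 0 in a whole group the fitted value depends on the prior count.

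The up-regulated genes weighed unequally in the 3 atherosclerosis pigs. They made up 2.73 to 2.95% of the summed FPKM in NC, and 7.70%, 7.38% and 25.9% in atherosclerosis replicates 1 to 3. Since these genes were chosen on the same values, the shares are a description. In 1306 of the 1475 genes (88.5%) replicate 3 was the atherosclerosis library farthest from NC. Without it, 1474 of the 1475 kept their direction, 898 were still called, and 287 of them had an edgeR adjusted p under 0.05. In the down-regulated genes replicate 3 was the farthest in 153 of 225 (68%). Of the 225, 103 (45.8%) had their 3 atherosclerosis libraries within 1 log2 unit of each other, against 167 of the 1475 up-regulated genes (11.3%). These shares cannot tell which genes were more even. The range was taken on log2(FPKM + 0.1), which narrows it for genes near 0 in atherosclerosis, and 17 down-regulated genes were at 0 there. Changes of the down-regulated genes were also smaller. Without replicate 3 all 225 kept their direction, 129 were still called and 15 of these had an edgeR adjusted p under 0.05.

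The largest up-regulated changes, among genes that the study's text does not name, included ACP5 and DCSTAMP, known from osteoclasts. TM4SF19, a tetraspanin-like membrane protein, was listed at 0 in each NC pig, and its atherosclerosis values were 0.580, 0.322 and 14.4 FPKM, at least 78.1-fold higher against a floor of 3 counts per NC library. ACP5 (chromosome 2, 70203114 to 70209899 in Sscrofa11.1), the tartrate-resistant acid phosphatase of osteoclasts, rose from 0.444, 0.271 and 0.521 FPKM in NC to 12.1, 5.24 and 275 FPKM in atherosclerosis. Its log2 fold change was 7.88 ± 1.73 (SE, n = 3 per group, edgeR adjusted p = 0.132). Atherosclerosis values above every NC value were required by the rule for naming, and replicate 3 lay far above the other atherosclerosis values. DCSTAMP, which drives the fusion of osteoclasts and macrophages, rose from 0.0186 to 0.0380 FPKM in NC to 0.657, 0.228 and 13.5 FPKM, by 7.5 ± 1.75 on the log2 scale (edgeR adjusted p = 0.139). Without replicate 3 the log2 fold changes were 4.35 for ACP5 and 4.04 for DCSTAMP.

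CYP7A1, TREH, TCN1 and AMBN, best known from other organs, were also up-regulated. CYP7A1 (chromosome 4, 74342856 to 74372638), the rate-limiting enzyme of bile acid synthesis from cholesterol in the liver, was at 0.0408, 0.0118 and 0.0549 FPKM in NC and at 1.61, 1.5 and 89.1 FPKM in atherosclerosis. Its log2 fold change was 9.74 ± 2.15 (edgeR adjusted p = 0.133), and 5.41 without replicate 3. TREH, the trehalase of the intestinal and renal brush border, went from 0.0737 to 0.12 FPKM in NC to 2.94, 2.17 and 80.3 FPKM (log2 fold change 8.22 ± 1.74, edgeR adjusted p = 0.132). TREH overlaps the span of PHLDB1, and whether the counting used strand is not stated, so reads of overlapping genes may be shared. TCN1, a vitamin B12-binding protein of secretions and granulocytes, went from 0.0745 to 0.184 FPKM to 7.72, 4.86 and 60.3 FPKM (7.64 ± 1.23). AMBN, an enamel matrix protein, went from 0.195 to 0.588 FPKM to 6.21, 6.22 and 70.6 FPKM (6.24 ± 1.23). Leaving out replicate 3 gave 4.72 for TREH, 5.67 for TCN1 and 4.07 for AMBN. In these 4 genes atherosclerosis replicates 1 and 2 were close to each other and replicate 3 was many times higher. SLC25A48, a mitochondrial carrier, and SOWAHD were up-regulated by 7.66 ± 1.64 and 7.18 ± 1.46 on the log2 scale (5.87 and 5.27 without replicate 3) from values of at most 0.0381 FPKM in NC.

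The 10 up-regulated genes at the highest levels, again among non-overlapping ones that the study does not name, were GPNMB, APOE, FTL, CTSD, CTSB, CTSZ, PSAP, CST3, GPX1 and HLA-DRA. GPNMB, a glycoprotein of lysosome-rich macrophages, was at 7.22, 4.55 and 7.01 FPKM in NC and at 119.8, 56.5 and 2699.7 FPKM in atherosclerosis, a log2 fold change of 7.25 ± 1.67 (edgeR adjusted p = 0.136). APOE, the apolipoprotein that macrophages secrete with effluxed cholesterol, went from 47.5, 25.2 and 23.8 FPKM to 610.0, 323 and 3596 FPKM (5.54 ± 1.04, edgeR adjusted p = 0.132). FTL, the ferritin light chain that stores iron, had the highest mean level of any up-regulated gene named here, with 506, 527 and 348 FPKM in NC and 1024, 897 and 5573 FPKM in atherosclerosis (2.42 ± 0.76, edgeR adjusted p = 0.242). The aspartic protease CTSD went from 35.5 to 46.7 FPKM to 286, 221 and 1876 FPKM (4.26 ± 0.92). CTSB, CTSZ, PSAP (the precursor of the saposins), the cathepsin inhibitor CST3, GPX1 and the class II gene given as HLA-DRA were up-regulated by 1.56 to 2.94 on the log2 scale. The log2 fold changes without replicate 3 were 3.78 for GPNMB, 3.82 for APOE, 1.03 for FTL, 2.59 for CTSD, 1.17 for CTSB, 1.33 for CTSZ, 1.34 for CST3 and 1.67 for HLA-DRA, while PSAP and GPX1 had log2 fold changes of 0.69 and 0.81 and were no longer called. FTL (with GYS1), CTSB (with FDFT1) and CTSZ (with NELFCD) overlap other genes, and APOE overlaps a gene without a symbol, which had at most 4 counts in any library.

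In other up-regulated genes the log2 fold change moved less when replicate 3 was left out. FAM111A (chromosome 2, 12250155 to 12260985), a protease linked to DNA replication and viral restriction, was at 0.346, 0.467 and 0.225 FPKM in NC and at 14.7, 5.92 and 20.5 FPKM in atherosclerosis (5.26 ± 0.57, edgeR adjusted p = 0.126). GPR183, an oxysterol receptor that guides immune cells, rose from 0.942 to 1.04 FPKM in NC to 17.1, 10.5 and 43.6 FPKM (4.56 ± 0.58, edgeR adjusted p = 0.129). Its span overlaps UBAC2. The matrix proteoglycan LUM was at 15.3, 19.1 and 16.9 FPKM in NC and at 145, 69.6 and 123 FPKM (2.69 ± 0.33, edgeR adjusted p = 0.126). POSTN, periostin, a matrix protein, changed by 2.11 ± 0.32. The gene given as VCAN, a large proteoglycan, changed by 2.49 ± 0.34, but its entry also carries the description of a DNA repair gene and overlaps a gene without a symbol and SCARNA18, so its reads may not be from VCAN alone. TNFRSF11B, osteoprotegerin, the decoy receptor that blocks osteoclast formation, was at 6.89, 8.76 and 4.95 FPKM in NC and at 43.1, 38.7 and 32.2 FPKM (2.44 ± 0.30). HBEGF, a growth factor of the EGF family, was at 1.68 to 1.91 FPKM in NC and at 10.3, 17.5 and 9.57 FPKM (2.77 ± 0.33). L1CAM, a neural cell adhesion molecule, was at 5.95, 9.80 and 2.97 FPKM in NC and at 51.5, 52.4 and 23.4 FPKM (2.73 ± 0.53). For TNFRSF11B, HBEGF and L1CAM the lowest of the atherosclerosis values was that of replicate 3. Leaving replicate 3 out gave log2 fold changes of 4.83 for FAM111A, 3.76 for GPR183, 2.60 for LUM, 2.54 for TNFRSF11B, 2.93 for HBEGF and 3.02 for L1CAM, and edgeR adjusted p-values of 0.00518 for FAM111A, 0.00458 for GPR183, 0.0089 for LUM, 0.00871 for TNFRSF11B and 0.00666 for HBEGF.

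**Figure D2:**
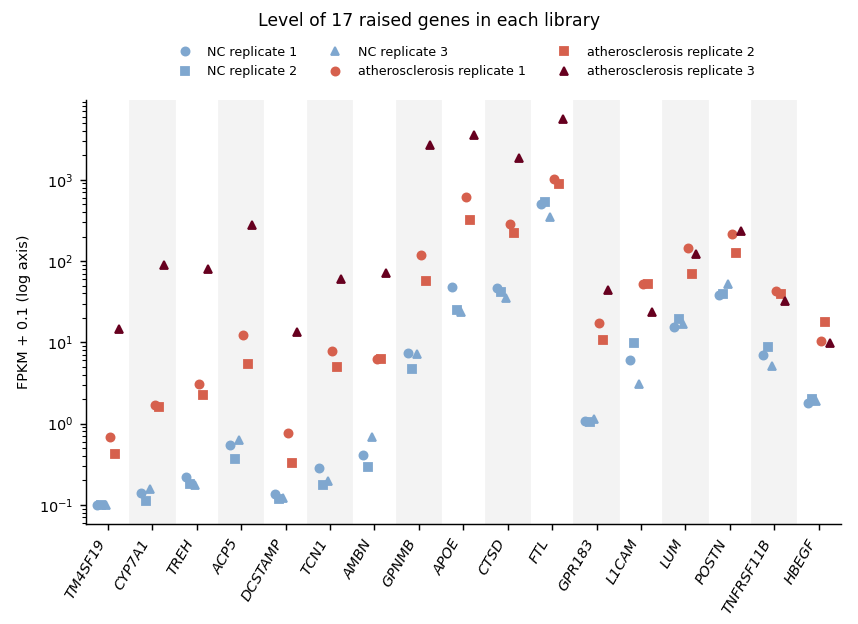
The y axis gives FPKM plus 0.1 on a log axis for 17 up-regulated genes, and each point is a library (blue for the 3 NC pigs, red for atherosclerosis replicates 1 and 2, dark triangles for replicate 3). Replicate 3 lies far above the other atherosclerosis libraries for genes from TM4SF19 to FTL, and beside or below them for L1CAM, LUM, POSTN, TNFRSF11B and HBEGF.

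Genes of sterol synthesis and the fatty acid desaturase FADS1 were among the down-regulated genes. SQLE (chromosome 4, 14667848 to 14700221), squalene epoxidase, was at 4.18, 3.56 and 3.18 FPKM in NC and at 0.845, 0.340 and 0.240 FPKM (-2.96 ± 0.50, edgeR adjusted p = 0.132). The study reported lower SQLE mRNA by RT-PCR as well. CYP51A1, the lanosterol demethylase, was at 5.27, 4.51 and 5.35 FPKM and at 1.63, 1.57 and 1.12 FPKM (-1.83 ± 0.25, edgeR adjusted p = 0.129). SC5D, a sterol desaturase, changed by -1.85 ± 0.41. FADS1, which makes polyunsaturated fatty acids, was at 21.6, 8.94 and 18.9 FPKM in NC and at 2.0, 5.22 and 1.73 FPKM (-2.46 ± 0.54). CYP51A1 overlaps ANKIB1. Without replicate 3 the log2 fold changes were -2.65 for SQLE and -1.68 for CYP51A1, with edgeR adjusted p-values of 0.0277 and 0.0183.

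Of 26 genes listed for cholesterol synthesis and its control, 23 were tested, 8 were down-regulated and 1 was up-regulated, beside 1.52% and 9.95% of all tested genes. The median log2 fold change of the list was -0.57, and -0.68 without replicate 3, where 8 were again called lower. By library the median difference from NC was -0.53, -0.72 and -0.49 in atherosclerosis replicates 1 to 3, so that replicate 3 did not stand apart here. The up-regulated member was INSIG1, which holds the SREBP machinery in the endoplasmic reticulum, with 4.81, 6.44 and 4.40 FPKM in NC and 18.8, 9.52 and 38.8 FPKM (2.07 ± 0.51). In fatty acid synthesis, FADS1 was the only down-regulated gene of 16 tested, and SCD (3.17 ± 0.92) and ACSL5 (1.14 ± 0.31) were up-regulated. The values without replicate 3 were 1.49 for SCD and 0.83 for ACSL5, which was then not called. PPARA, a nuclear receptor for fatty acid oxidation, was at 7.04 to 7.23 FPKM in NC and at 3.36, 2.94 and 1.83 FPKM (-1.43 ± 0.33, edgeR adjusted p = 0.136).

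The other down-regulated genes with the largest changes or the widest gaps between the groups were of several kinds. CLDN10, a tight junction protein that forms ion pores between cells, was at 33, 15.5 and 20.5 FPKM in NC and at 3.87, 5.30 and 1.05 FPKM (-2.77 ± 0.61, edgeR adjusted p = 0.132). ATP2C2, a calcium and manganese pump of the secretory pathway, was at 3.12, 1.38 and 1.60 FPKM and at 0.418, 0.0654 and 0.222 FPKM (-3.11 ± 0.69). KCNK4, a mechanosensitive background potassium channel, was at 3.30, 2.32 and 2.32 FPKM and at 0.632, 0.314 and 0.0370 FPKM (-3.02 ± 0.89, edgeR adjusted p = 0.215). CACNA1S, the voltage sensor subunit of the L-type calcium channel of skeletal muscle, was at 3.83, 2.75 and 1.62 FPKM and at 0.512, 0.554 and 0.101 FPKM (-2.83 ± 0.68). The rule for naming these genes required groups that do not overlap. For CLDN10, KCNK4 and CACNA1S replicate 3 was the lowest library, and without it the log2 fold changes were -2.34, -2.49 and -2.38. IRX1, a homeobox transcription factor, LGI2, a secreted leucine-rich repeat protein, and PITPNM3, a phosphatidylinositol transfer protein, had log2 fold changes of -2.74 ± 0.71, -2.40 ± 0.61 and -1.93 ± 0.38.

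**Figure D3:**
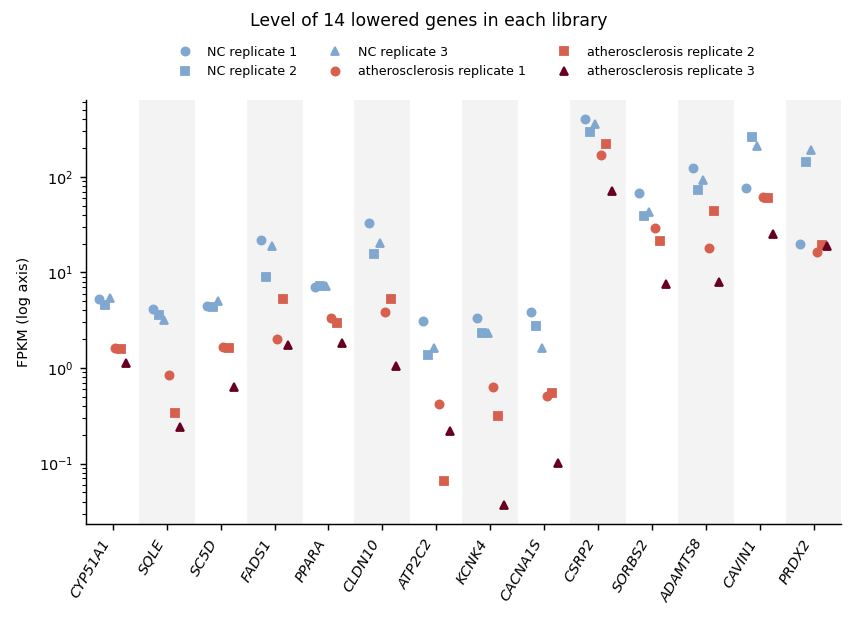
FPKM (log y axis) of 14 down-regulated genes in each library, with blue for the 3 NC pigs, red for atherosclerosis replicates 1 and 2 and dark triangles for replicate 3. The atherosclerosis libraries lie close together for CYP51A1 and PPARA, replicate 3 is well below the others for KCNK4, CACNA1S, CSRP2 and SORBS2, and NC replicate 1 lies beside the atherosclerosis libraries for PRDX2 and CAVIN1.

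The 10 down-regulated genes at the highest levels, among non-overlapping ones that the study does not name, were CSRP2, SORBS2, ADAMTS8, ADAMTS1, ADAMTSL4, SH3BGR, NCS1, DUSP3, PRDX2 and CAVIN1. CSRP2, a LIM-domain protein of smooth muscle, was at 401, 297 and 358 FPKM in NC and at 170, 219 and 71.8 FPKM (-1.21 ± 0.41, edgeR adjusted p = 0.272). SORBS2, an adaptor of the actin cytoskeleton, was at 67.3, 38.6 and 42.4 FPKM and at 29.1, 21.2 and 7.60 FPKM (-1.38 ± 0.49). ADAMTS8 and ADAMTS1, secreted metalloproteases that cleave proteoglycans, were down-regulated by -2.06 ± 0.60 and -1.46 ± 0.59. ADAMTS8 was at 124, 72.4 and 93.2 FPKM in NC and at 18, 43.4 and 8.01 FPKM. ADAMTSL4 (-1.12 ± 0.46), SH3BGR (-1.33 ± 0.55), the calcium sensor NCS1 (-1.28 ± 0.48) and the phosphatase DUSP3 (-1.01 ± 0.36) were also called, all with replicate 3 the lowest. Without replicate 3 the log2 fold changes of CSRP2, ADAMTSL4, SH3BGR, NCS1 and DUSP3 were between -0.74 and -0.90, and none was called. These 5 calls, like those of ADAMTS1 and SORBS2, were also lost without at least 1 of the NC libraries.

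In PRDX2 and CAVIN1 one NC library lay near the atherosclerosis libraries. PRDX2, a peroxiredoxin, was at 143 and 192 FPKM in NC replicates 2 and 3 but at 20.02 FPKM in NC replicate 1, near the 16.5, 19.4 and 18.7 FPKM of atherosclerosis (-2.73 ± 0.74, edgeR adjusted p = 0.183). Its span overlaps HOOK2 and JUNB. CAVIN1, a coat protein of caveolae, was likewise at 75.5 FPKM in NC replicate 1 against 258 and 209 FPKM in the others, with 61.3, 59.6 and 25.2 FPKM in atherosclerosis (-1.93 ± 0.56). Of the 17 down-regulated genes at 0 in every atherosclerosis library, 3 are named here after their values were seen. CYP4B1, a fatty acid hydroxylase, had 92, 83 and 70 counts in NC, at least 22-fold lower in atherosclerosis against the floor of 3 counts per library. MOXD1 had 190, 5 and 0 counts and CDH4 136, 0 and 6 counts in NC replicates 1 to 3, so that most of their counts were those of NC replicate 1, and both calls were lost without it and without atherosclerosis replicate 1 or 2.

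Markers of the cell types were compared as lists, and which cells carried the differences was not tested. The counts of called markers stand beside the 9.95% of all tested genes called higher and the 1.52% called lower. Of 15 macrophage markers all were tested and up-regulated, with a median log2 fold change of 5.09 (5.01 with MARCO, which was at 0 in NC, at its bound) and 3.28 without replicate 3. Their summed level was 32.9 to 48 FPKM in NC pigs, while it reached 497, 277 and 5120.4 FPKM in the 3 atherosclerosis pigs in order. The sums of the groups did not overlap, and the exact permutation test gave p = 0.1, the smallest it can give with 3 against 3. C1QC, a subunit of complement C1q made by macrophages, went from 4.11 to 6.58 FPKM to 66.0, 38.1 and 417 FPKM (5.09 ± 0.99, edgeR adjusted p = 0.132). Its log2 fold change without replicate 3 was 3.33. Of 12 T cell markers 10 were up-regulated, and the sum of the list was 0.472 to 0.711 FPKM in NC and 7.23, 19.5 and 31.3 FPKM. Without replicate 3, 8 were called and the median log2 fold change went from 4.69 to 3.26. CD3E, a chain of the T cell receptor complex, was highest in replicate 2, at 15.8 FPKM, against 1.22 and 4.98 FPKM in replicates 1 and 3. It gave most of the sum of replicate 2, and its span overlaps that of CD3D, also in the list. Of 11 osteoclast markers 10 were tested and all 10 were up-regulated (CTSK was not analysed here), with a sum of 6.94 to 10.7 FPKM in NC and 35.9, 24.4 and 462 FPKM. Without replicate 3 the median log2 fold change of the osteoclast markers went from 6.46 to 3.82 and 8 of 10 were called. Some markers of these lists were near 0 in NC and passed the filter only through atherosclerosis, which can raise the share called. OCSTAMP was at 0 in every NC library, and OSCAR, CALCR, CD4 and CD5 had NC means of 0.0214, 0.0395, 0.0194 and 0.0121 FPKM. The shares called in these lists are therefore a description. The osteoclast markers ACP5, DCSTAMP and ATP6V0D2 are also made by macrophages, and the sums of both lists moved together, so the part of either cell type was not tested.

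Of the markers of other blood cells, up-regulated were 3 of 6 tested neutrophil markers, 4 of 5 mast cell markers, 3 of 5 dendritic cell markers and 3 of 6 B cell markers. Over all tested genes 9.95% were called higher. Without replicate 3 the calls were 2, 3, 2 and 3 in this order. The filter took the mean of all 6 libraries, so a marker near 0 in NC was tested only where atherosclerosis was high. S100A12, XCR1 and BLK, at NC means of 0.00836, 0.0495 and 0.0339 FPKM, were tested in this way. Such markers can raise the share called, so the shares are a description. CSF3R, the receptor for G-CSF on neutrophils and monocytes, was at 0.301, 0.232 and 0.233 FPKM in NC and at 7.28, 4.55 and 46.8 FPKM (6.23 ± 1.03, and 4.49 without replicate 3). The granule enzyme MPO was at 0 in every library but atherosclerosis replicate 3, at 0.626 FPKM. The B cell markers MS4A1 and PAX5 were under the filter. Of the summed NK cell markers, 345 FPKM in replicate 3, 341 FPKM came from NKG7 alone, a granule protein, and the defining receptor NCR1 was at 0.684 FPKM there and at 0 in NC. Of 7 tested plasma cell markers 2 were up-regulated. The sum over the 9 in the deposited table was 55.2 to 67.0 FPKM in NC and 37 to 59.7 FPKM in atherosclerosis. XBP1 alone gave most of this sum, with 49.2 to 63.03 FPKM in NC and 28.7 to 54.97 FPKM in atherosclerosis. The up-regulated markers PRDM1 and MZB1 reached at most 4.68 and 0.879 FPKM, so the sum mainly follows XBP1. Whether plasma cells changed was not tested. Of 3 tested erythroid markers 0 were called. For the 6 erythroid markers in the deposited table the sum was 31.4 to 127 FPKM in NC and 20.3 to 254 FPKM in atherosclerosis. Markers of dividing cells had 0 of 12 called, with a median log2 fold change of 0.90 and of 0.02 without replicate 3.

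In cells of the vessel wall fewer markers passed the test. Over all tested genes 9.95% were called higher and 1.52% lower. None of 12 smooth muscle markers was called, although all 12 had a log2 fold change below 0, with a median of -0.79. By library their median difference from NC was -0.46, -0.33 and -2.90, and their sum was 12470.5 to 14856 FPKM in NC against 8730.2, 12519.9 and 1867 FPKM in the atherosclerosis pigs (exact permutation p = 0.2). By the sum, replicate 2 was within the range of NC, replicate 1 below it and replicate 3 far below it, and by the median all 3 were below NC, whose libraries were between -0.09 and 0.15. Of 27 tested contractile genes 3 were down-regulated, CSRP2, SORBS2 and MYLK2, the last from 0.960 and 0.866 FPKM in 2 NC libraries and 0.0757 FPKM in the third. No endothelial marker of 10 was called. PECAM1 was at 26.9 to 74.5 FPKM in NC and 28.7 to 56.3 FPKM in atherosclerosis, and the median log2 fold change of the list was 0.00. Of 8 pericyte markers, NDUFA4L2 was up-regulated (1.64 ± 0.26, from 9.80 to 15.2 FPKM to 32.3, 43.9 and 38.3 FPKM) and KCNJ8, a subunit of the ATP-sensitive potassium channel, was down-regulated (-1.19 ± 0.42). RGS5 was not called, at 949, 813 and 839 FPKM in NC and 680, 342 and 99.4 FPKM in atherosclerosis (-1.25 ± 0.62). The sum of the pericyte list, mostly RGS5 in NC, was 1106 to 1221 FPKM there. It was 941, 727 and 263 FPKM in atherosclerosis (exact permutation p = 0.1). Of the 8 log2 fold changes 4 were above 0 and 4 below. Of 10 fibroblast markers LUM and PDGFRA (1.49 ± 0.38) were up-regulated, while COL1A1 and COL1A2 had log2 fold changes of 0.34 and 0.25 and were not called.

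Adipocyte markers were examined because the extraction label speaks of adipose tissue. Of 11 tested, LEP, LPL and PPARG were up-regulated and LIPE was down-regulated, beside 9.95% and 1.52% of all tested genes. ADIPOQ, which defines adipocytes, was at 4.44, 14.6 and 6.83 FPKM in NC and at 7.24, 0.0705 and 0.416 FPKM in atherosclerosis, and PLIN1, the coat protein of their lipid droplets, at 3.59, 16.5 and 5.91 FPKM and at 5.58, 0.134 and 0.213 FPKM. Neither was called, and atherosclerosis replicates 2 and 3 were far lower than the other libraries in both. The sum of the list was 182 to 313 FPKM in NC and 173 to 297 FPKM in atherosclerosis (exact permutation p = 0.8). The part of fat around the vessel in the other results was not tested.

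**Figure D4:**
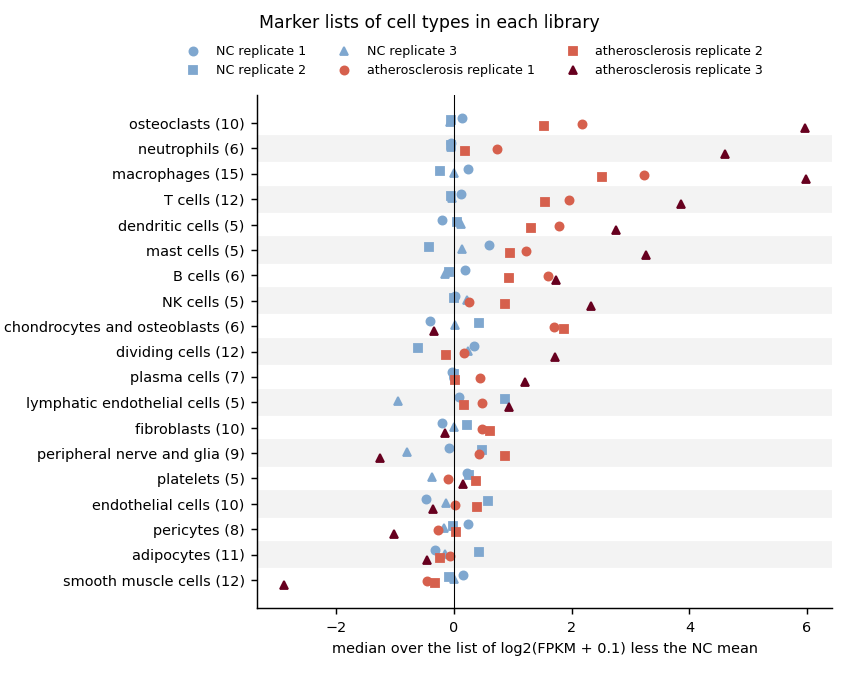
For each marker list (number of tested genes in brackets), each point is a library's median over the list of log2(FPKM + 0.1) less the NC mean of the gene, on the x axis. Blue marks NC and red atherosclerosis, with dark triangles for replicate 3, which lies at about 6 for osteoclast and macrophage markers and at -2.90 for smooth muscle markers, while the other atherosclerosis libraries lie between NC and replicate 3 for these lists.

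Among the other gene lists, the highest shares of up-regulated genes were in antigen presentation by MHC class II (9 of 9 tested), complement (15 of 19), interferon-stimulated genes (24 of 33), lysosomal proteins (28 of 42), chemokines and their receptors (19 of 31), cytokines (17 of 28) and cholesterol efflux and lipid uptake (13 of 22). No gene of these lists was down-regulated. The shares over all tested genes were 9.95% higher and 1.52% lower. In the last list, as in the others, the calls include replicate 3. In the efflux list ABCA1, the LXR target that exports cholesterol, was at 0.454 to 0.527 FPKM in NC and at 5.35, 4.36 and 15.5 FPKM (4.08 ± 0.55, edgeR adjusted p = 0.129). OLR1, a receptor for oxidized LDL, changed by 2.89 ± 0.41. C1R and C1S, the proteases that follow C1q in the classical pathway, changed evenly, C1R from 32.7 to 53.1 FPKM to 111, 122 and 127 FPKM (1.56 ± 0.27). The spans of C1R and C1S overlap each other, so reads may be shared between them. Without replicate 3 the lysosomal list had 12 of its 42 genes called higher, and its median log2 fold change went from 1.54 to 0.68. The cytokines then had 6 calls (median 1.82 before and 1.19 after), the chemokines 13 (2.59 and 1.60), the efflux list 9 (1.55 and 0.63), MHC class II 7 (2.96 and 1.52), complement 11 (1.88 and 1.51) and the interferon-stimulated genes 19 (1.43 and 1.13).

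Of 37 tested vasoactive receptors and regulators, 5 (13.5%) were up-regulated, near the 9.95% of all genes, and 4 (10.8%) were down-regulated, beside 1.52% of all genes. Leaving out replicate 3 left 3 and 3. HTR2B, a serotonin receptor, was at 0.394, 0.465 and 0.443 FPKM in NC and at 1.13, 1.45 and 1.82 FPKM (1.73 ± 0.35, edgeR adjusted p = 0.132), and NPR3, the clearance receptor of natriuretic peptides, changed by 1.39 ± 0.43. S1PR3, a sphingosine 1-phosphate receptor, was at 15.4, 20.4 and 29.9 FPKM and at 7.38, 14.9 and 8.53 FPKM (-1.11 ± 0.38). Of 14 potassium channel genes KCNMA1, the large-conductance channel of smooth muscle, was down-regulated, from 14.8, 18.2 and 21.8 FPKM to 10.5, 10.3 and 3.03 FPKM (-1.23 ± 0.47), and KCNJ2 and KCNIP1 were up-regulated from under 0.25 FPKM in NC. The calls of S1PR3, KCNMA1, KCNJ2, KCNIP1 and KCNJ8 were lost without atherosclerosis replicate 3. The median of that list was -0.91, and -0.46 with no gene called without replicate 3. None of 28 genes of cGMP and cAMP signaling was called.

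Matrix and growth factor genes are given beside the 9.95% of all genes called higher and the 1.52% called lower. Of 25 tested collagens 3, or 12%, were up-regulated (COL6A3, COL24A1 and COL4A4, the last 2 at under 1 FPKM and lost in most fits without a library), and of 51 proteoglycans, elastic fibre and adhesive glycoproteins 5, or 9.80%. Of 39 matrix proteases and inhibitors 12 (30.8%) were up-regulated, including SERPINE2, an inhibitor of thrombin and urokinase (2.61 ± 0.39), and ADAMTS8 and ADAMTS1 were down-regulated. Of 49 genes of insulin and growth factor signaling 10 (20.4%) were up-regulated and 1 (2.04%) down-regulated. The platelet-derived growth factors PDGFB (2.12 ± 0.41) and PDGFD (1.81 ± 0.32) were among the 10. DKK2, a secreted Wnt inhibitor, was at 4.03, 2.10 and 2.76 FPKM in NC and at 1.40, 1.12 and 0.866 FPKM (-1.41 ± 0.36, edgeR adjusted p = 0.157), one of 2 down-regulated genes of 51 in TGF-beta, BMP and Wnt signaling. Calls were absent or rare in 29 ribosomal proteins (0), 23 heat shock genes and chaperones (0), 22 muscle transcription regulators (0), 18 circadian clock genes (1, BHLHE41), 23 immediate early genes (1, EGR2), 28 HOX genes (1, HOXA10, lower) and 31 mitochondrial genes (UCP2 higher, PPARA lower).

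Of 11 tested calcification regulators 5 (45.5%, beside 9.95% of all genes) were up-regulated: TNFRSF11B, ENPP1 (2.0 on the log2 scale), which makes the mineralization inhibitor pyrophosphate, NT5E (3.41), RUNX2 (3.92), the transcription factor of osteoblasts, and SPP1, osteopontin, at 5.97 to 9.81 FPKM in NC and 181, 56.8 and 861 FPKM in atherosclerosis (5.43 ± 1.04). Without replicate 3 ENPP1 had a log2 fold change of 0.42 and was not called, and SPP1 had 3.77. The list then had 4 calls, and its median went from 1.73 to 0.42. The call of ENPP1 was also lost without NC replicate 1, 2 or 3. Of 35 oxidative stress genes 13 (37.1%) were up-regulated, with the NADPH oxidase subunits NCF1 (4.34), NCF4 (4.03) and CYBA (2.89) among them, and PRDX2 was down-regulated. Without replicate 3, 7 were called higher and the median log2 fold change of the list went from 0.92 to 0.37. NCF1, NCF4 and CYBA then had 2.55, 2.48 and 1.47. In glycolysis and hypoxia 4 of 28 (14.3%) were up-regulated, HK2, LDHA, SLC16A3 and VEGFA, a share near the background. The log2 fold change of LDHA without replicate 3 was 0.50, and it was not called. Its call was also lost without NC replicate 1, 2 or 3. In Notch, semaphorin, ephrin and axon guidance 7 of 42 (16.7%) were up-regulated, with SEMA4A the most (5.17, and 3.11 without replicate 3), and SEMA3E was down-regulated (-2.11), a call lost without NC replicate 2 or atherosclerosis replicate 2. Of 9 tested nerve and glia markers L1CAM and MBP were up-regulated, and MBP went from 2.17 to 0.94 and was not called without replicate 3. The sum over the 12 markers in the deposited table was 11.9 to 21.6 FPKM in NC and 62.8, 73.8 and 34.1 FPKM in atherosclerosis. Of the atherosclerosis sums L1CAM alone gave 51.5, 52.4 and 23.4 FPKM.

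**Figure D5:**
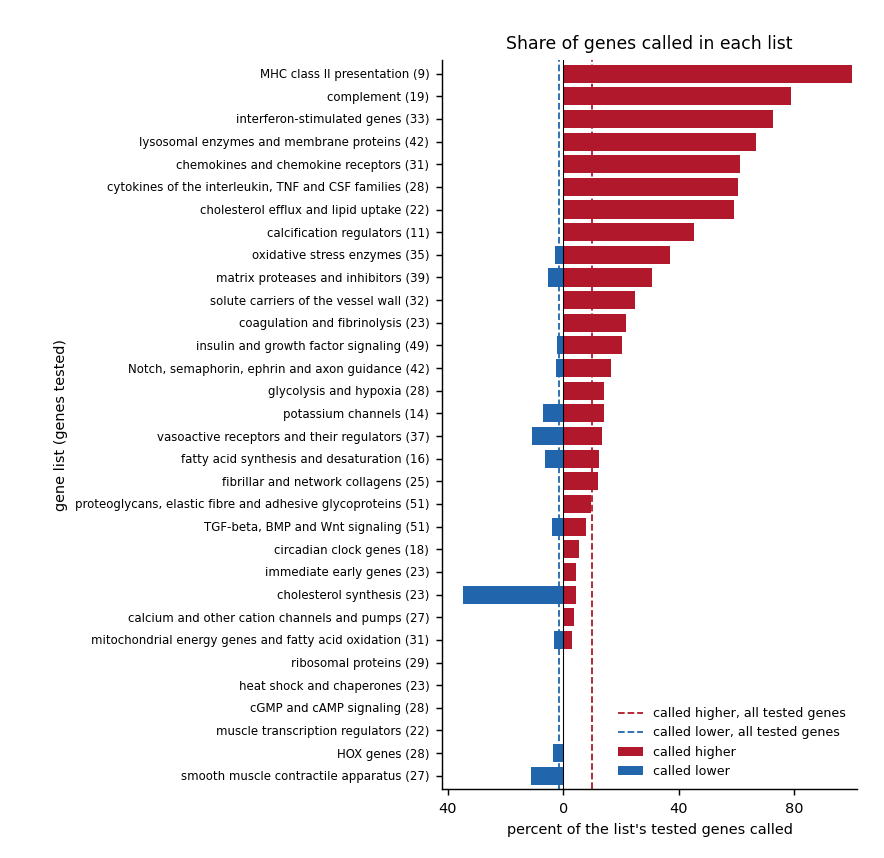
Bars give the percent of each list's tested genes (number in brackets) called higher (red, to the right) or lower (blue, to the left), and the dashed lines give the same over all 14828 tested genes (9.95% and 1.52%). Cholesterol synthesis has the longest bar to the left, with 8 of 23 genes, and MHC class II presentation the longest to the right.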

How the data were processed

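Per the study's methods, the authors mapped paired-end reads of poly(A) RNA to Sscrofa11.1 with HISAT 2.0 and computed FPKM with StringTie 1.3.0; the processing notes also list Bowtie 0.12.2 and a mouse build, which do not match. The authors deposited FPKM and estimated counts (whole numbers) per gene and library. How the counting was done and its strand setting are not given in the sources used here. Of all tested genes 41.1% overlap another gene's span. Among them are genes named above without this remark, such as HTR2B (with PSMD1), NCF4 (with PVALB) and RUNX2 (with SUPT3H). Library sizes enter through TMM factors, so values are relative within a library. Tests covered genes whose FPKM averaged 0.1 or more over the 6 libraries, fitted with edgeR 4.0.16 (quasi-likelihood, TMM, both directions). DESeq2 1.42.0 and limma 3.58.1 were alternatives. A gene near 0 in a group could pass this filter only through the other group, which can raise the share of tested genes called. The standard error is the log2 fold change divided by the root of F. Symbols missing in the table were taken by gene ID for 990 genes; 31 repeated symbols were each given to the copy of highest mean FPKM. Genes named are the 10 per direction with the largest change, the widest gap and the highest level among called, non-overlapping genes averaging 1 FPKM or more that the study's text does not name, up to 4 per list by p-value, and 3 defining markers per cell type. SQLE, a gene of the study's RT-PCR, was kept in although the study's text names it. CYP4B1, MOXD1, CDH4, INSIG1, MARCO, LDHA, CYBA, ENPP1 and SEMA3E fall outside this rule and were chosen after their values had been looked at. The comparison, the lists and the tests were chosen with earlier results of these data known. The method was tested on simulated data. The 3 libraries of the 8-week group were used in an alternative fit only. No sequences are shown, and some genes are not reported here.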

Additional observations from a re-analysis of the deposited data

How the results depend on the processing

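The numbers of called genes, 1475 higher and 225 lower, were 714 and 141 with limma on log2(FPKM + 1), and 141 lower with a filter at a mean FPKM of 1. Leaving out 1 library at a time gave 993 to 1788 higher and 139 to 459 lower. The fewest higher calls came without atherosclerosis replicate 3 (993, with 188 lower). Calls in the lower direction moved beyond 1.5 times without NC replicate 1 (139), atherosclerosis replicate 1 (403) and atherosclerosis replicate 2 (459). In every one of these fits 769 of the 1475 and 57 of the 225 were called. Past the adjusted threshold, where edgeR called 0 and 0, the counts were 879 higher and 75 lower in DESeq2, 9 and 1 with limma on log2(FPKM + 0.1), 1 and 1 with limma on log2(FPKM + 1), 5 and 1 with all 9 libraries in the fit, and 1 and 0 with the filter at 1. Without 1 library they ranged from 0 to 288 higher and from 0 to 16 lower, the highest without atherosclerosis replicate 3, and were 5 and 1 without atherosclerosis replicate 2. The cause of these differences was not tested. The replicate numbers did not pair the samples: same-numbered libraries had correlations of -0.04, 0.05 and 0.01 between their deviations from the group means, and the fit with a replicate block gave 1114 higher and 250 lower. No alternative moved the median log2 fold change of all genes outside -0.022 to 0.0346. List medians near 0 changed sign in 4 cases: without NC replicate 3 the lymphatic endothelial markers gave -0.0923 (0.39 with it), heat shock genes 0.0148 (-0.171) and clock genes 0.0115 (-0.18), and without atherosclerosis replicate 3 clock genes gave 0.0146. Without 1 library the lymphatic endothelial median ranged from -0.0923 to 1.25, that of heat shock genes from -0.339 to 0.0148 and that of clock genes from -0.168 to 0.0146. No gene that was called and met the rule for naming reversed its direction under an alternative. Over all genes that met the rule, called or not, and all alternatives, 198 values were no longer called, 90 became called and 3558 stayed on their side. Leaving out 1 library also ended calls of FTL (NC replicate 3), PSAP and GPX1 (NC replicates 1 or 2), HK2 (NC replicates 1 or 2), SLC16A3 (NC replicates 1 or 3), MBP (NC replicates 2 or 3), NCR1 (each library but atherosclerosis replicate 1), and HOXA10 and LIPE (atherosclerosis replicates 2 or 3, and NC replicate 2).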
